A study of Sus scrofa with 42 samples.

Results

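The messenger RNA levels of 10 genes of Polycomb repressive complex 2 (PRC2) and of the enzymes that remove its mark were followed in single blastomeres of early pig embryos. The genes were chosen by symbol, EZH1, EZH2, EED, SUZ12, AEBP2, JARID2, MTF2, PHF19, KDM6A and KDM6B, and all 10 were among the 15351 genes of the expression table. The set was drawn up with the level of AEBP2 in the PA 8-cell embryo in view, so values of that embryo are given as a description, with no test. Embryos were fertilized in vitro (IVF), or arose from an oocyte that was activated without sperm, a parthenogenetic embryo (PA), and blastomeres were taken at the 1-, 2-, 4- and 8-cell stages, which the study collected at 19, 27, 48 and 72 h. In all, 42 cells of 20 embryos fell into 8 groups: 3 cells of 3 embryos at the 1-cell stage, 6 cells of 3 embryos at the 2-cell stage, 9 cells of 3 embryos at the 4-cell stage and 3 cells of 1 embryo at the 8-cell stage, for each of IVF and PA. The labels give no breed, strain, age, allele or sex. By the study's methods the PA oocytes were also incubated with 6-dimethylaminopurine and cytochalasin B. A PA embryo has no paternal genome and no Y chromosome, whereas an IVF embryo may be of either sex. From Y-chromosome expression, the study counted the IVF 8-cell embryo and most IVF 4-cell embryos as male and all other embryos as female. The agents, the paternal genome and embryo sex, which was not used here, cannot be told apart in IVF against PA, also for the X-linked KDM6A.

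PRC2 places methyl groups on lysine 27 of histone H3 (H3K27), a mark of silenced genes. EZH1 and EZH2 are its alternative catalytic subunits, and EED and SUZ12 complete the core, EED by binding the mark and SUZ12 as the scaffold. Accessory proteins attach to SUZ12 in alternative sets: the Polycomb-like proteins MTF2 and PHF19 in the first, and AEBP2 with JARID2 in the second. KDM6A and KDM6B are demethylases that take H3K27 methylation off again. Before genome activation an embryo relies on RNA stored in the oocyte, and H3K27 methylation is extensively rewritten in this period in mammals.

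Sequence upstream of the gene is shown for 3 accessory subunits whose levels stood at opposite ends of the series, AEBP2 high at the 8-cell stage and MTF2 and PHF19 high at the 1-cell stage. Each run is the 200 bases before the start of the gene in the expression table, read 5′ to 3′ on the gene's strand from the RefSeq genome of build Sscrofa11.1, the build of the table; no RefSeq exon lay in these 3 windows. The RefSeq gene begins at the same base for MTF2, at 53691487 for AEBP2 and at 260919776 for PHF19, so the PHF19 window does not reach the RefSeq start and may miss that promoter. Capitals mark matches, searched on both strands, to 4 motifs, none of which contains another. The GC box was searched as GGGCGG. The CCAAT box was searched by the letters of its name. The TATA box was searched as TATAAA. The OTX-type homeodomain motif was searched as TAATCC.
AEBP2, chr5:53691548-53691747, minus strand: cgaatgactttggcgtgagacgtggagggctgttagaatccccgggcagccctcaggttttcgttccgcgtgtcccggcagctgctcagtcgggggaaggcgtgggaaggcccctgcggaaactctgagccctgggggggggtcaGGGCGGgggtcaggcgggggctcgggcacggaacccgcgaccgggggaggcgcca
MTF2, chr4:124124441-124124640, minus strand: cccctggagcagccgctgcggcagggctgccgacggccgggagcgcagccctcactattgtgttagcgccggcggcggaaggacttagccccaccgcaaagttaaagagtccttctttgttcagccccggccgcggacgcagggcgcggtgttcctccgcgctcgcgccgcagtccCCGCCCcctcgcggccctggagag
PHF19, chr1:260920111-260920310, minus strand: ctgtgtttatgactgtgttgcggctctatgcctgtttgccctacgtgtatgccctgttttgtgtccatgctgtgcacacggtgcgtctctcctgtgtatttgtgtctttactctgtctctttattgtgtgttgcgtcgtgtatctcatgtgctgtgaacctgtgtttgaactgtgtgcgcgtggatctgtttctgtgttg
The AEBP2 and MTF2 windows were rich in CpG, with 19 and 25 CpG pairs and 70.5% and 71.5% G or C, and each held 1 GC box. The PHF19 window, which lies upstream of the RefSeq start, held 8 CpG pairs and 48% G or C, and none of the 4 motifs. Over the 15327 windows of this length that could be read, the median was 10 CpG pairs, 42.8% held the GC box, 27.4% the CCAAT box, 7.64% the TATA box and 4.25% the OTX-type motif. A match describes letters and not a bound site.

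In the table, AEBP2 spans chr5:53441484-53691547 and its model is longer than that of RefSeq, which covers 53617362 to 53691487; no other gene of either annotation lay inside it. SUZ12 and EED each overlap 1 other gene of RefSeq. SUZ12 lies at chr12:42983388-43032751, EED at chr9:20123509-20158743, EZH2 at chr9:109385019-109451018 and EZH1 at chr12:20118356-20139419. JARID2 lies at chr7:11303859-11602097, MTF2 at chr4:124048806-124124440, PHF19 at chr1:260899452-260920110 and KDM6A at chrX:39954175-40152832. KDM6B is an exception, since its model in the table, chr12:52796952-53108916, overlaps 14 other genes of the table, while the RefSeq gene covers only 53087072 to 53108949; its values are uncertain for that reason.

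Values are FPKM, fragments scaled to gene length and to library size, which may be compared between genes. Whole reads could be recovered from the FPKM steps of 10358 of 11803 genes (87.8%, within 0.02 read for counts under 20), and summed over those genes the 42 cells held 2177319 to 8726298 reads. A read of AEBP2 was worth 0.00547 to 0.0221 FPKM, and the gene had 2 to 128781 reads per cell. Cells had 3481 to 9453 genes above 0, and mitochondrial genes took 6.07% to 63.0% of FPKM, with group medians of 17.1% at the IVF 1-cell stage, 52.3% at the IVF 8-cell stage, 13.2% at the PA 1-cell stage and 45.5% at the PA 8-cell stage. Blastomere 4 of the PA 8-cell embryo was the cell with 3481 genes. At the 4-cell stage the median cell held 5743076 reads in IVF and 3719132 in PA. The mitochondrial medians at that stage were 43.7% and 25.2%.

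Among 861 pairs of cells, 2 pairs were near-repeats with a Pearson r of 0.999 over 8116 genes, against 0.908 for the next pair. Blastomere 4 of PA 4-cell embryo 1 nearly repeated blastomere 2 of PA 2-cell embryo 1, and blastomere 1 of PA 4-cell embryo 2 nearly repeated blastomere 1 of PA 2-cell embryo 2. Tests that rest on the PA 4-cell group are therefore given with and without these libraries, and those on the PA 2-cell group where they move. Without the near-repeats, PA 4-cell embryo 1 is its blastomere 3 alone, and embryo 2 is the mean of its other 3 blastomeres. The embryo was the replicate, with its value the mean of its blastomeres, and nothing in the labels says whether embryos came from separate cultures.

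The order of the genes by level differed between the early and the late stages, as the heat map of all 42 cells shows. PHF19 was the most abundant of the 10 genes at the 1- and 2-cell stages in both IVF and PA embryos. AEBP2 was the most abundant at the 8-cell stage in both, where its mean exceeded that of 99.3% of the 8116 tested genes in the IVF embryo and 99.6% in the PA embryo. SUZ12 ranked second at the 8-cell stage in both, and EED came next. KDM6B stayed below 1 FPKM in 41 of 42 cells.

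**Figure D1:**
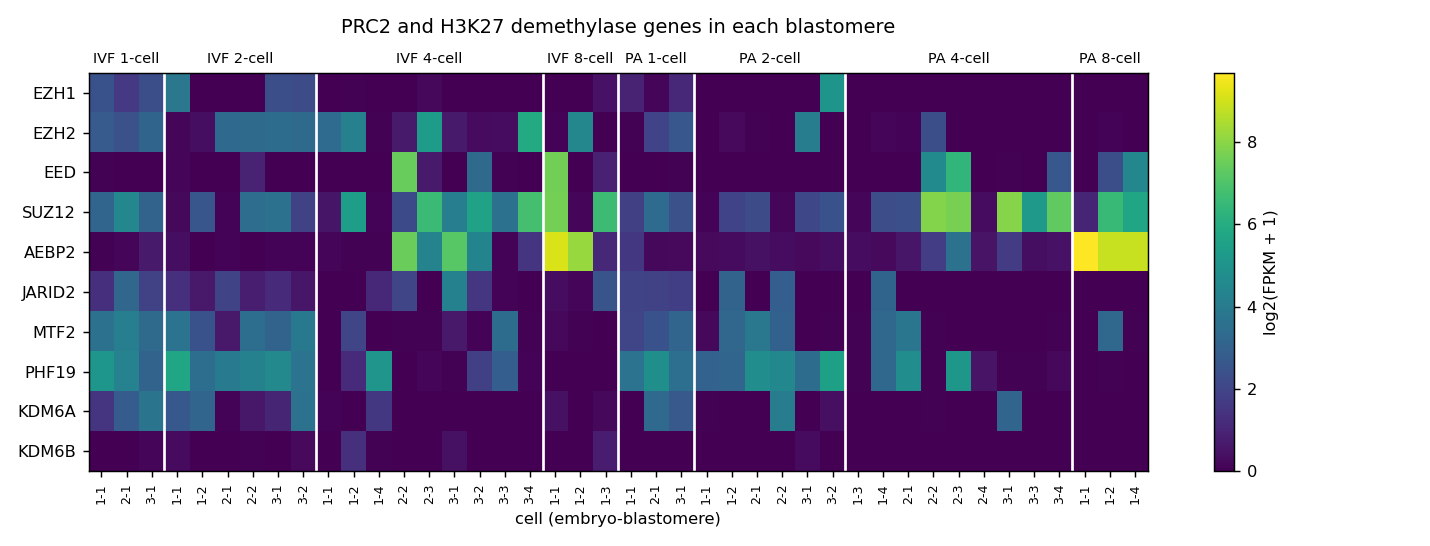
Level of each of the 10 genes (rows) in each of the 42 blastomeres (columns, named by embryo and blastomere), as log2(FPKM + 1). PHF19 and MTF2 are brightest in columns of the first stages of each method (1- and 2-cell stages). SUZ12, EED and AEBP2 are brightest in some columns of the 4- and 8-cell stages and dark in others. EED is at 1 FPKM or more in 2 of 9 IVF and 3 of 9 PA 4-cell blastomeres. AEBP2 is at 815.9 FPKM in 1 PA 8-cell blastomere.

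Of the catalytic subunits, EZH2 was at 1 FPKM or more in 12 of the 21 IVF and 4 of the 21 PA blastomeres. Its FPKM in the 3 IVF 1-cell embryos was 5.78, 4.25 and 7.63, and in the 3 IVF 4-cell embryos 9.05, 19.99 and 15.1. IVF 2-cell embryo 1 was low, at 0.183. PA 1-cell embryos had 0.0417, 2.89 and 5.10 and PA 2-cell embryos 0.0882, 0.0226 and 7.81, with blastomere 1 of embryo 3 the only PA 2-cell blastomere at 1 FPKM or more. In PA 4-cell embryos EZH2 was 0.0743, 1.03 and 0.00426, below every IVF 4-cell embryo, a separation seen in 9.65% of tested genes in that direction, and without the near-repeats PA 4-cell embryos 1 and 2 were at 0.0121 and 1.36. Sister blastomeres were alike in IVF 2-cell embryos 2 (8.97 and 9.24) and 3 (9.58 and 9.18) and unlike at later stages: in IVF 4-cell embryo 3, blastomere 4 had 59.3 FPKM of EZH2 and the other 3 had 0.606 or less, and in the IVF 8-cell embryo blastomere 2 had 21.1 against 0.0562 and 0 in its sisters. All 3 PA 8-cell blastomeres were at 0.0592 or less.
EZH1, the other catalytic subunit, was at 1 FPKM or more in 6 of the 21 IVF and 2 of the 21 PA blastomeres, all at the 1- and 2-cell stages. It measured 4.37, 2.06 and 3.96 FPKM in the IVF 1-cell embryos and 0.888, 0.0827 and 1.19 in the PA 1-cell embryos, so the IVF embryos lay above all the PA embryos, as for 14.1% of tested genes in that direction. IVF 2-cell embryos had 6.73, 0 and 3.85 FPKM, and 3 of the 6 IVF and 4 of the 6 PA 2-cell blastomeres were listed at 0. At the 4-cell stage no embryo passed 0.0765 in either method, and the step from the 2-cell stage was not called in IVF (limma adjusted p = 0.328) or PA (limma adjusted p = 0.651). The PA 2-cell mean of 5.16 ± 8.93 FPKM (SD, n = 3) rested on blastomere 2 of embryo 3, at 31.0 FPKM, with the other 5 blastomeres at 0.0126 or less.

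The core subunits EED and SUZ12 had their highest IVF means at the 8-cell stage, EED from near absence. In PA their mean FPKM was highest at the 4-cell stage, while on the log2 scale the PA 8-cell embryo lay above the PA 4-cell mean for both. EED was at 0.0517 FPKM or less in each of the 6 embryos of the 1-cell stage. It was 0, 85.1 and 2.30 in the IVF 4-cell embryos and 65.1 in the IVF 8-cell embryo, where blastomere 1 had 194.3, blastomere 2 had 0.0161 and blastomere 3 had 0.845. The embryo mean thus came from a single blastomere in each of IVF 4-cell embryo 2 and the IVF 8-cell embryo. In PA embryos EED was 0.0121, 26.1 and 1.72 at the 4-cell stage (0, 34.8 and 1.72 without the near-repeats) and 8.44 in the 8-cell embryo. These values spanned more than the difference between the methods.
SUZ12 was measured at every stage. Its FPKM in the IVF 2-cell embryos was 2.61, 4.98 and 7.02, and in the IVF 4-cell embryos 13.7, 49.3 and 46.2, so these groups did not overlap, as for 5.98% of tested genes in that direction. The IVF 8-cell embryo had 99.0, with 199.1, 0.0883 and 97.7 in its blastomeres. In PA embryos it was 1.47, 1.84 and 3.90 at the 2-cell stage, 1.97, 109.8 and 145.3 at the 4-cell stage and 48.6 at the 8-cell stage. PA 4-cell embryo 1, at 1.97, lay inside the range of the 2-cell embryos, through its near-repeat library. Embryo 1 was at 0.125 and embryo 2 at 145.0 without the near-repeats of the 4-cell group. The PA 2-cell values still hold the partner libraries, so embryo 1 is not ranked against them. With both libraries of each pair left out, the PA 2-cell mean was 1.36 ± 2.20 FPKM (SD, n = 3), against 2.40 ± 1.31 with them.

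AEBP2, the accessory subunit that helps PRC2 to engage nucleosomes, had the widest range of the 10 genes. Its level in the PA 8-cell embryo was 815.9, 461.8 and 462.6 FPKM in the 3 blastomeres, a mean of 580.1, and in the IVF 8-cell embryo it was 562.7, 292.7 and 1.14, a mean of 285.5. All 3 PA blastomeres were high, whereas blastomere 3 of the IVF embryo was low. IVF 4-cell embryos stood apart from each other, at 0.0629, 98.3 and 41.2 FPKM; all 3 blastomeres of embryo 1 were at 0.107 or less, and in embryo 3 they were 143.5, 19.5, 0.0628 and 1.81. PA 4-cell embryos had 0.227, 3.68 and 0.979 FPKM, of which blastomere 3 of embryo 2 carried 11.4; without the near-repeats embryos 1 and 2 were at 0.257 and 4.75.
In order of group mean, AEBP2 ran from the PA 8-cell embryo through the IVF 8-cell embryo, the IVF 4-cell group (46.5 ± 49.3, SD, n = 3), the PA 4-cell group (1.63 ± 1.82), the PA 1-cell group (0.774 ± 1.05), the IVF 1-cell group (0.267 ± 0.327) and the PA 2-cell group (0.239 ± 0.0516) to the IVF 2-cell group (0.0865 ± 0.0541). The ranges of neighbours overlapped from the IVF 4-cell group down to the PA 2-cell group. The last pair, PA and IVF at the 2-cell stage, did not overlap, a separation seen in 3.04% of tested genes in that direction, and both lay at or below 0.293 FPKM. By log2 fold change from the PA 1-cell to the PA 8-cell embryo, AEBP2 was number 3 of the 8116 tested genes, a position that was known when the set was chosen.

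**Figure D2:**
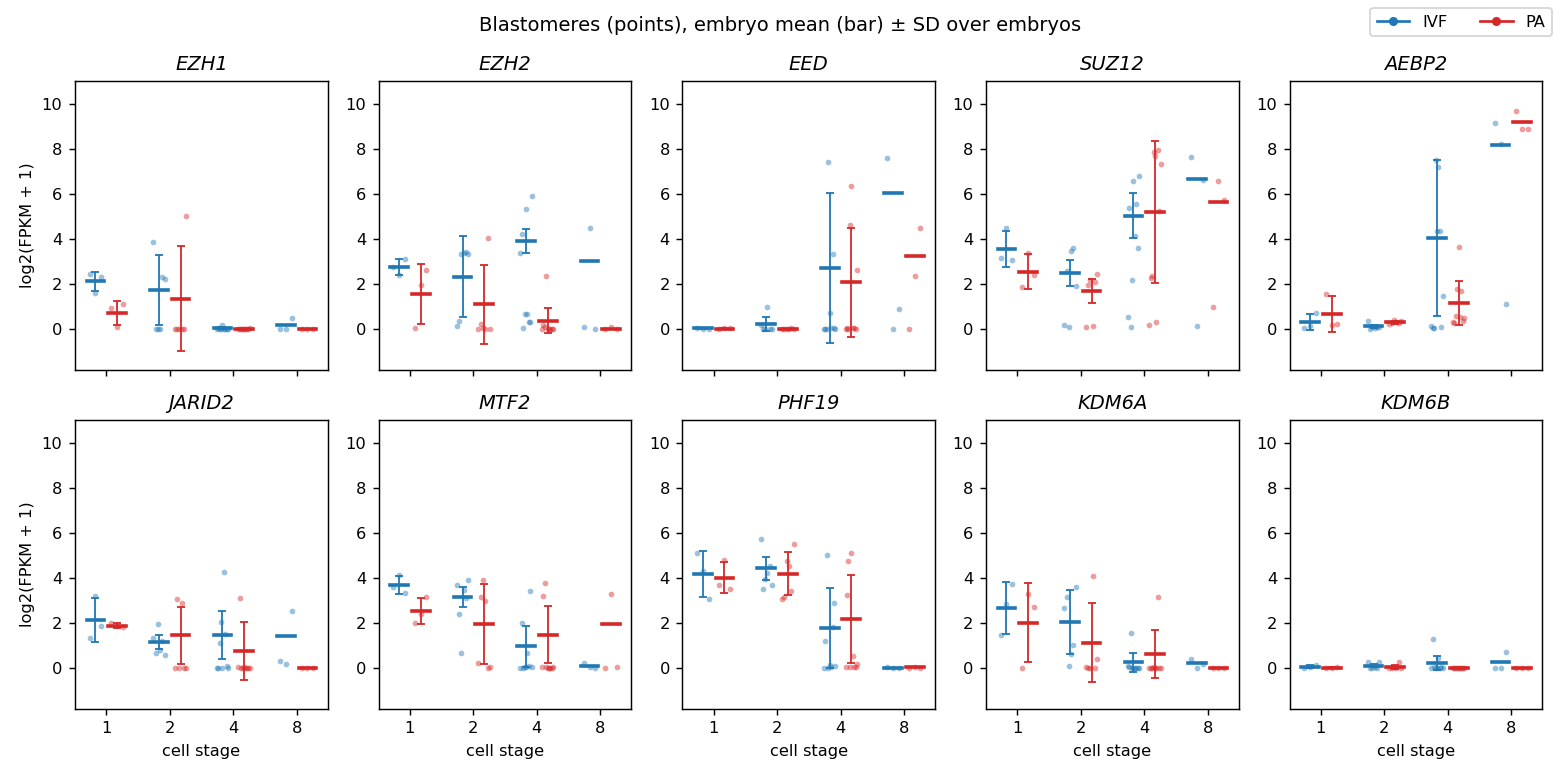
Each panel shows log2(FPKM + 1) of a gene by cell stage, with points for blastomeres, a bar for the log2 mean over embryos and a whisker for the SD over embryos (none at the 8-cell stage, where there was 1 embryo). AEBP2 reaches 580.1 FPKM in the PA and 285.5 in the IVF 8-cell embryo, while PHF19 stands at 0.0233 and 0.0108.

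Levels of the Polycomb-like subunits PHF19 and MTF2 were highest at the first stages. PHF19, which binds unmethylated CpG-rich DNA and methylated H3K36, measured 33.3, 18.7 and 7.41 FPKM in IVF 1-cell embryos and 12.02, 27.2 and 10.6 in PA 1-cell embryos. It was at 31.5, 16.2 and 17.0 in IVF 2-cell embryos and 11.04, 0.0520 and 2.25 in IVF 4-cell embryos, which lay below all the 2-cell embryos, as for 14.3% of tested genes in that direction. In PA embryos PHF19 was at 7.57, 23.9 and 27.1 FPKM at the 2-cell stage. At the PA 4-cell stage it was at 4.21, 15.0 and 0.0794, so these groups overlapped. PA 4-cell embryos 1 and 2 were at 0.0506 and 11.4 without the near-repeats. No 8-cell blastomere of either method passed 0.0497. MTF2, its relative, was at 11.2, 16.7 and 9.18 FPKM in IVF 1-cell embryos, 1.01, 0.0351 and 2.60 in IVF 4-cell embryos and 0.0715 in the IVF 8-cell embryo. The PA 8-cell embryo differed in level, at 2.91 FPKM, through blastomere 2 alone, which had 8.68 against 0.0189 and 0.0399 in its sisters.
In the PA 4-cell group MTF2 and JARID2 depended on the near-repeat libraries. MTF2 was at 2.47 ± 2.18 FPKM (SD, n = 3) with them and 0.0253 ± 0.0125 without them. JARID2, which helps bring PRC2 to its sites, was at 1.27 ± 2.19 with them and 0.0143 ± 0.00801 without them. In IVF embryos JARID2 kept low levels throughout, with means between 1.26 FPKM at the 2-cell and 4.12 at the 1-cell stage, and it was at 0.00601 in the PA 8-cell embryo. A blastomere of IVF 4-cell embryo 3 held 18.3 FPKM, the highest JARID2 value of the series.

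The X-linked demethylase KDM6A had its highest IVF mean at the 1-cell stage. In PA the 1-cell mean was 4.79 FPKM and the 2-cell mean 2.72, or 5.37 without both libraries of each near-repeat pair. KDM6A was 1.74, 6.10 and 12.3 FPKM in IVF 1-cell embryos, 6.65, 0.310 and 6.05 in IVF 2-cell embryos, and 0.692, 0 and 0.00858 in IVF 4-cell embryos. The IVF 8-cell embryo had 0.164 and the PA 8-cell embryo 0.00219. PA 1-cell embryos had 0.0114, 8.91 and 5.46. PA 2-cell embryos had 0.0220, 7.97 and 0.164, with 15.9 in blastomere 2 of embryo 2 and 0.314 or less in the other 5 blastomeres, so the gene was already low in most of that group. The 2.63 FPKM in PA 4-cell embryo 3 came from blastomere 1, at 7.87. KDM6B reached 1.48 FPKM in blastomere 2 of IVF 4-cell embryo 1 and 0.647 or less in every other cell.

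Because the subunits work as a complex, their presence in the same cell was counted, with presence taken as 1 FPKM or more. EZH1 or EZH2 passed this level in 3 of 3 IVF 1-cell, 5 of 6 IVF 2-cell, 4 of 9 IVF 4-cell and 1 of 3 IVF 8-cell blastomeres, and in 2 of 3, 2 of 6, 1 of 9 and 0 of 3 PA blastomeres. EED passed it in none of the 18 blastomeres of the 1- and 2-cell stages. A catalytic subunit, EED and SUZ12 met in 1 of 42 cells, blastomere 2 of PA 4-cell embryo 2. That cell had 4.06 FPKM of EZH2, 23.7 of EED and 231.7 of SUZ12. EED passed 1 FPKM in only 8 of the 42 cells and SUZ12 in 32, so few cells could hold all 3. Whether the 3 met less often than their separate counts imply was not tested. AEBP2 passed 1 FPKM in all 6 blastomeres of the 8-cell stage, and 5 of these 6 had neither EZH1 nor EZH2 at that level. MTF2 or PHF19 passed it in all 18 blastomeres of the 1- and 2-cell stages, in 0 of 3 IVF and in 1 of 3 PA 8-cell blastomeres. KDM6A or KDM6B passed it in none of the 6 blastomeres of the 8-cell stage. The counts concern RNA in the deposited values, and protein was not measured.

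**Figure D3:**
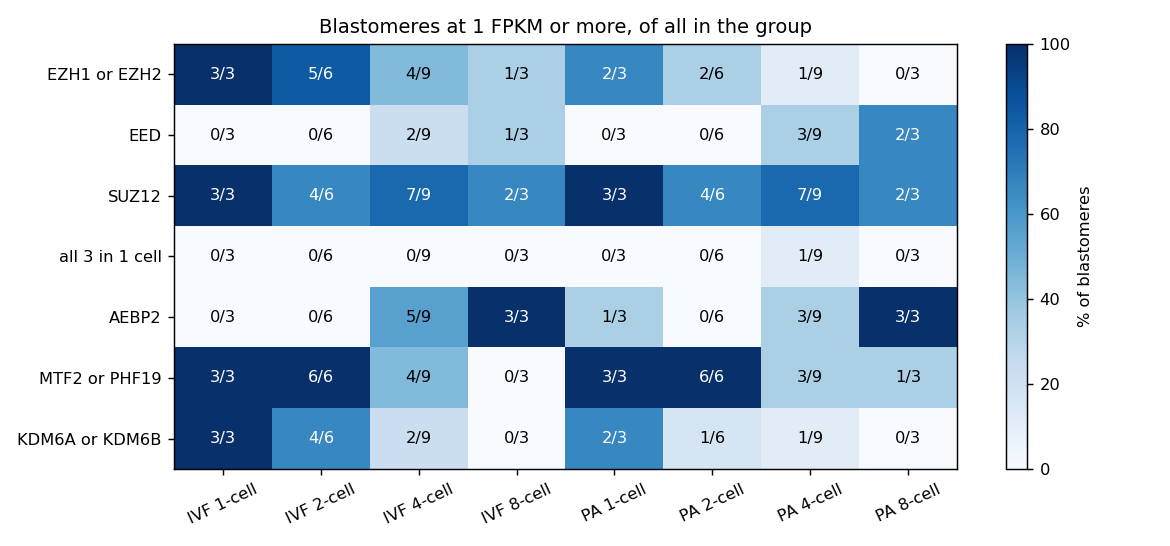
Blastomeres at 1 FPKM or more, of all in the group, for each gene or gene pair (rows) and group (columns), with the colour giving the percentage. EED is at 0 in the 1- and 2-cell groups, the row for all 3 core parts in 1 cell holds a single cell, and AEBP2 fills both 8-cell groups.

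Changes were tested over embryos with limma on log2(embryo mean FPKM + 1) over the 8116 genes at 1 FPKM or more in at least 3 cells; a gene was called at a Benjamini-Hochberg adjusted p under 0.05 and a fold change of 2 or more. Of the 10 genes, 9 passed that filter and KDM6B did not. Each 8-cell group is 1 embryo, assumed to vary like the others. For AEBP2 and EED the IVF 4-cell embryos spanned 0.0629 to 98.3 and 0 to 85.1 FPKM. The IVF 1-cell embryos spanned only 0.0451 to 0.643 and 0 to 0.0517. The pooled SE of these genes may therefore be too small for an 8-cell embryo. Every call of a named gene in this fit, with all libraries kept, sets that single embryo against 3 and has no replicate of its own. Comparisons into and out of the same stage share its embryos.
From the IVF 1-cell to the IVF 8-cell stage, 2 genes were called, both higher, where 14.3% of all tested genes were called and 6.03% were called higher; 4 members had an unadjusted limma p under 0.05, as did 29.6% of all genes. AEBP2 rose by a log2 fold change of 7.85 (SE 1.62, limma adjusted p = 0.00308), and the 8-cell embryo lay above all the 1-cell embryos, as for 25% of tested genes. EED rose by 6.01 (SE 1.73, limma adjusted p = 0.0257). The EED call rested on blastomere 1 of the 8-cell embryo: without it the log2 fold change was 0.49 (limma adjusted p = 0.883), whereas AEBP2 was still called, with 6.90. PHF19 and MTF2 did not pass, with log2 fold changes of -4.14 (SE 1.38, limma adjusted p = 0.0509) and -3.60 (SE 1.24, limma adjusted p = 0.0588). SUZ12 had 3.08 (SE 1.51), KDM6A -2.45 (SE 1.47), EZH1 -1.94 (SE 1.27), JARID2 -0.69 (SE 1.196) and EZH2 0.26 (SE 1.39), none of them called. The median over the 9 fitted genes was -0.69 and over all tested genes -0.77.

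The step at which these levels moved was not resolved by the test. From the IVF 2-cell to the 4-cell stage no member was called, where 1.11% of all genes were, and 4 had an unadjusted limma p under 0.05, as did 17.6% of all genes. These were AEBP2 with a log2 fold change of 3.92 (SE 1.15, limma adjusted p = 0.0879), PHF19 with -2.65 (SE 0.98, limma adjusted p = 0.164), MTF2 with -2.18 (SE 0.88, limma adjusted p = 0.205) and SUZ12 with 2.55 (SE 1.07, limma adjusted p = 0.220). IVF 4-cell embryo 1 decided the first pair: without it AEBP2 had 5.90 (limma adjusted p = 0.00011) and PHF19 -3.55 (limma adjusted p = 0.0353). EED had 2.49 (SE 1.23), but 0.63 without IVF 4-cell embryo 2 and 3.85 without embryo 1. EZH2 had 1.59 (SE 0.98), or 0.55 without IVF 2-cell embryo 1. The others were KDM6A with -1.79 (SE 1.04), EZH1 with -1.70 (SE 0.90) and JARID2 with 0.32 (SE 0.84). EZH1 had -1.09 without IVF 2-cell embryo 1 and -2.57 without IVF 2-cell embryo 2.
From the IVF 4-cell to the 8-cell stage no member was called against 6.97% of all genes, and AEBP2 alone had an unadjusted limma p under 0.05, as did 19.4% of all genes (log2 fold change 4.12, SE 1.62, limma adjusted p = 0.152). EED had 3.33 (SE 1.73), PHF19 -1.77 (SE 1.38) and SUZ12 1.61 (SE 1.51), with the other 5 between -0.90 and 0.13. AEBP2 had 2.15, EED 1.97, SUZ12 1.04 and PHF19 -0.87 without IVF 4-cell embryo 1. SUZ12 had 0.61 without blastomere 1 of the 8-cell embryo. Without IVF 4-cell embryo 2 both AEBP2 (5.42, limma adjusted p = 0.0271) and EED (5.19, limma adjusted p = 0.0154) were called; without blastomere 1 of the 8-cell embryo EED had -2.20.
From the IVF 1-cell to the 2-cell stage no member was called, nor was any other gene (0.0%), and no member had an unadjusted limma p under 0.05, as 2.66% of all genes had. Log2 fold changes ran from -1.08 for SUZ12 to 0.28 for PHF19.

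**Figure D4:**
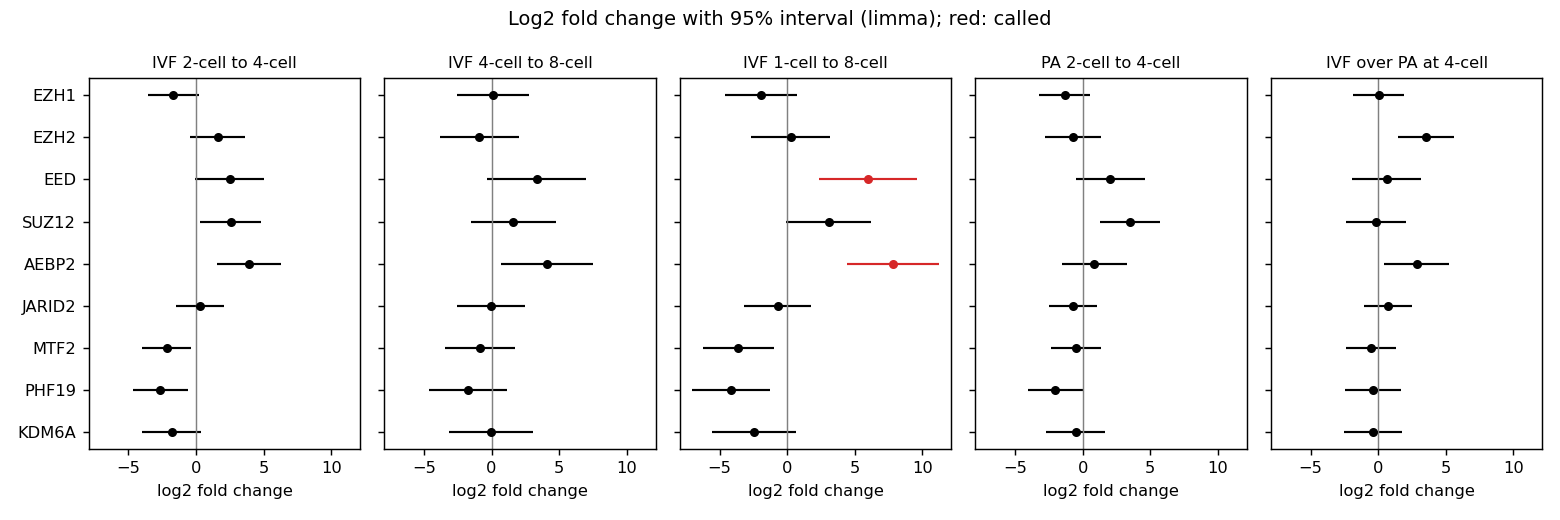
Log2 fold changes (points) with 95% intervals (lines) from limma for the 9 fitted genes in 5 comparisons, over embryos; red marks genes called. In the IVF 1-cell to 8-cell panel AEBP2 (7.85) and EED (6.01) are called, and no gene is in the other 4 panels.

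In PA embryos no member was called from the 1-cell to the 2-cell stage, where 0.0986% of all genes were, with none at an unadjusted limma p under 0.05 (4.85% of all genes) and log2 fold changes between -0.87 for KDM6A and 0.63 for EZH1. Without both libraries of each near-repeat pair SUZ12 had -1.70 and MTF2 -1.45, against -0.84 and -0.57 with them, and neither was called. From the PA 2-cell to the 4-cell stage none was called either, against 0.394% of all genes, and SUZ12 alone had an unadjusted limma p under 0.05 (10.8% of all genes). Its log2 fold change was 3.48 (SE 1.07, limma adjusted p = 0.223), and 3.15 (limma adjusted p = 0.150) without the near-repeats in the 4-cell group. Without PA 4-cell embryo 1 it was 5.29 (limma adjusted p = 0.00168). PHF19 had -2.02 (SE 0.98, limma adjusted p = 0.471) with the near-repeats and -2.92 (limma adjusted p = 0.0855) without them. It was -0.99 (limma adjusted p = 0.988) without PA 4-cell embryo 3. MTF2 moved with the near-repeats, from -0.47 with them to -1.93 without them. JARID2 had -0.69 (SE 0.84) with them and -1.43 without them. EED had 2.06 (SE 1.23), EZH1 -1.34 (SE 0.90), AEBP2 0.86 (SE 1.15), EZH2 -0.72 (SE 0.98) and KDM6A -0.50 (SE 1.04), and without the near-repeats 2.19, -1.34, 0.97, -0.68 and -0.50. Without both libraries of each pair MTF2 had -1.05, JARID2 -0.96 and SUZ12 4.00. EED had 0.72 without PA 4-cell embryo 2. The count of all genes called in this step was 32 with the near-repeats, 601 without those of the 4-cell group and 434 without both libraries of each pair, and no member was among them.
To the PA 8-cell embryo, described without a test, the log2 difference of AEBP2 was 8.51 from the 1-cell and 8.01 from the 4-cell stage. PHF19 had -3.98 from the 1-cell stage, and KDM6A and JARID2 had -2.002 and -1.88 and EZH2 -1.51, while EED stood 3.21 and SUZ12 3.09 above it. Blastomere 4 of the PA 8-cell embryo carried most of the EED level, and without it EED stood 1.58 above the 1-cell stage. Over the alternatives the values from the 1-cell stage ran from 1.42 to 6.20 for EED and from 1.87 to 6.43 for SUZ12. Those of AEBP2 ran from 6.68 to 11.6 and those of PHF19 from -6.95 to -2.02. JARID2 ran from -4.73 to -0.62, KDM6A from -4.12 to -0.85 and EZH2 from -3.44 to -0.56. Of the 9 fitted genes 3 lay 2-fold or more above the 1-cell level and 4 lay 2-fold or more below it, against 21.6% and 39.8% of all tested genes.

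Between the methods, EZH2 at the 4-cell stage showed the widest gap. No member was called there, against 0.554% of all genes, and EZH2 and AEBP2 had an unadjusted limma p under 0.05 (14% of all genes). EZH2 was higher in IVF embryos by a log2 fold change of 3.53 (SE 0.98, limma adjusted p = 0.0986), with the 3 IVF embryos above the 3 PA embryos, and by 3.49 (limma adjusted p = 0.0540) without the near-repeats. AEBP2 had 2.87 (SE 1.15, limma adjusted p = 0.254), and 2.76 without the near-repeats. It had 4.85 (limma adjusted p = 0.000969) without IVF 4-cell embryo 1 and 1.58 (limma adjusted p = 0.564) without IVF 4-cell embryo 2. The other 7 fitted genes lay between -0.52 for MTF2 and 0.71 for JARID2; without the near-repeats these were 0.93 and 1.46, and the 7 lay between -0.38 for KDM6A and 1.46.
At the 1-cell stage no member was called, against 0.0493% of all genes, and at the 2-cell stage none was, against 0.0%; limma gave no member an unadjusted p under 0.05 at either stage, against 4.09% and 5.43% of all genes. The highest log2 fold changes of IVF over PA at the 1-cell stage were 1.40 for EZH1 and 1.21 for EZH2. At the 2-cell stage they were 1.22 for EZH2 and 1.18 for MTF2. EZH2 had 0.47 at the 1-cell stage without PA 1-cell embryo 1. At the 2-cell stage it ran from 0.69 to 2.26 with an embryo left out, and MTF2 had 0.21 without PA 2-cell embryo 3. Without both libraries of each near-repeat pair the 2-cell values of MTF2 and SUZ12 were 2.06 and 1.63, against 1.18 and 0.78 with them, and JARID2 had 0.18; none was called. The lowest log2 fold changes with all libraries were -0.36 for AEBP2 at the 1-cell stage and -0.30 for JARID2 at the 2-cell stage. EZH1 and MTF2 lay higher in all 3 IVF 1-cell embryos than in any PA 1-cell embryo, a separation also seen in 14.1% of tested genes in that direction.
The difference between the methods in each step was tested as an interaction. No member, and no other gene (0.0%), was called for the 1- to 2-cell or for the 2- to 4-cell step, and limma gave no member an unadjusted p under 0.05, against 2.8% and 5.35% of all genes. AEBP2 had the highest value in the 2- to 4-cell step, 3.06 (95% interval -0.33 to 6.46), and 2.95 without the near-repeats. It was 1.76 (limma adjusted p = 0.893) without IVF 4-cell embryo 2 and 5.04 (limma adjusted p = 0.0213) without IVF 4-cell embryo 1. MTF2 had the lowest, -1.70 (-4.30 to 0.90), but -0.25 without the near-repeats of the 4-cell group, when KDM6A was lowest with -1.29. In the 1- to 2-cell step the values ran from -1.004 for EZH1 to 0.24 for KDM6A. Without both libraries of each near-repeat pair MTF2 was highest with 0.89, SUZ12 had 0.61 and KDM6A -0.0658.
At the 8-cell stage, with 1 embryo each and no test, EZH2 was higher in the IVF embryo by 2.98 on the log2 scale, EED by 2.81, JARID2 by 1.43 and SUZ12 by 1.01, while MTF2 had -1.87 and AEBP2 -1.02. Most of these differences rested on single blastomeres. Without blastomere 1 of the IVF embryo EED had -2.72 and SUZ12 0.00954, without blastomere 2 EZH2 had 0.0118, and without blastomere 3 JARID2 had 0.25 and AEBP2 -0.44. Without blastomere 2 of the PA embryo MTF2 had 0.0578. Other removals widened a difference. AEBP2 had -1.97 without blastomere 1 of the IVF embryo, and EED 4.44 without blastomere 4 of the PA embryo. SUZ12 had 1.59 without blastomere 2 of the IVF embryo. It had 1.89 without blastomere 2 of the PA embryo, but 0.45 without blastomere 1 of that embryo. Of the 9 genes 4 lay 2-fold or more higher and 2 lower, against 19.4% and 19.3% of all tested genes.

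For SUZ12 the SD between sisters was 2.59 on the log2(FPKM + 1) scale, for EED 2.25, for AEBP2 1.92 and for EZH2 1.76, against a median of 1.34 over all tested genes. Between the embryo means of a group, which average over sisters and vary less for that reason, the SDs were 1.69, 1.28, 1.496 and 1.12, against a median of 0.81. KDM6A and EZH1 had the smallest SDs between sisters of the 9 genes, 0.96 each.
Over the 20 embryos EED followed AEBP2 with a Pearson r of 0.82 and SUZ12 with 0.76, and MTF2 followed PHF19 with 0.62, while AEBP2 and PHF19 ran opposite with -0.79. EZH2 had an r between -0.14 and 0.21 with each of the other 8. The embryos share stage, so these are descriptions and carry no test.
The genes most like AEBP2 over the 20 embryos were P2RY11, EIF3G, NR5A2, DLC1 and SLC34A2, with r from 0.98 down to 0.97. P2RY11 and EIF3G overlap on opposite strands of chromosome 2, so they may share reads. Most like EZH2 were CUL3, SFSWAP, FAM118B, RAD51AP1 and OGFOD1, with r from 0.80 down to 0.78. Most like KDM6A were an unnamed gene, ENSSSCG00000010401, with 0.86, CTH, STYXL1, a second unnamed gene, ENSSSCG00000029600, and METTL14, at 0.81.

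Other genes of the pathway were taken from lists, which were drawn up with earlier results of these data known. The list of other PRC2 genes also held UTY, the Y-linked relative of KDM6A and no part of PRC2. Of this list, 6 genes were in the table and 5 passed the filter. UTY did not pass. It was at 1.02 FPKM in blastomere 2 of the IVF 8-cell embryo and at 0 in the mean of every other group. PHF1, the remaining Polycomb-like protein, rose from 0.00517 ± 0.00895 FPKM (SD, n = 3) at the IVF 1-cell stage to 15.9 in the 8-cell embryo (log2 fold change 4.08, SE 0.95, limma adjusted p = 0.00751), and no other gene of this list was called in any comparison; this is 1 of 5, against 14.3% of all tested genes called and 6.03% called higher. The histone chaperone RBBP4, a further core partner, was at 170.3 FPKM in IVF 1-cell and 87.3 in the IVF 8-cell embryo, and RBBP7 at 46.2 and 22.5. In the PA 8-cell embryo they were at 257.2 and 0.589.
Of PRC1, the partner complex that ubiquitinates histone H2A, 15 of 23 genes in the table passed. Its catalytic subunit RNF2 fell from 64.8 ± 9.25 FPKM (SD, n = 3) at the IVF 1-cell stage and 45.8 ± 27.9 at the 4-cell stage to 0.787 at the 8-cell stage, with log2 fold changes of -5.19 (SE 1.03, limma adjusted p = 0.00212) and -4.46 (SE 1.03, limma adjusted p = 0.00984); the other 14 were not called, so 1 of 15 was called in each comparison against 14.3% and 6.97% of all tested genes. RNF2 measured 44.0 in PA 1-cell embryos and 0.0730 in the PA 8-cell embryo.
Of the 7 tested genes around the H2A deubiquitinase, BAP1, its catalytic subunit, rose from 1.61 ± 1.87 and 0.922 ± 1.43 FPKM at the IVF 1- and 4-cell stages to 36.2 (log2 fold changes 4.06 and 4.52, limma adjusted p = 0.0298 and 0.0251). Blastomere 3 of the 8-cell embryo had 107.0 FPKM and the other 2 had 1.64 or less; without it neither change was called (log2 fold changes -0.27 and 0.19). BAP1 was at 0.00469 in the PA 8-cell embryo, and 1 of 7 genes called compares with 14.3% and 6.97% of all tested genes. In the list of H3K27 acetylation and of the methyltransferase partners of KDM6A, 1 of 8 tested genes was called, ASH2L, which fell from 26.8 ± 12.7 and 20.2 ± 16.8 FPKM to 0.0643 (log2 fold changes -4.60 and -4.04, limma adjusted p = 0.0113 and 0.0359), 1 of 8 in each comparison against 14.3% and 6.97% of all tested genes. Apart from these steps to the IVF 8-cell embryo, no gene of the 4 lists was called in the comparisons tested. Of HOX genes, classical targets of Polycomb silencing, 28 were in the table, 2 passed the filter and neither was called. From the IVF 1-cell to the 8-cell stage the median log2 fold change was -0.35 over the other PRC2 genes, -0.36 over PRC1, -1.06 over the deubiquitinase list and -1.42 over the acetylation list, against -0.77 over all tested genes.

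Marker levels also differed between stages. The 11 oocyte markers in the table summed to 979.7 to 1240.8 FPKM per IVF 1-cell blastomere and 7.52 to 197.4 per IVF 8-cell blastomere, and to 1195.0 to 1405.2 and 2.18 to 87.9 in PA. BTG4, the most abundant of them, was at 730.4 FPKM in IVF 1-cell embryos, and FIGLA was below 1 FPKM in every cell of 7 of the 8 groups. BMP15, KPNA7 and BTG4 were called lower in the IVF 8-cell embryo than at the 1-cell and at the 4-cell stage, with log2 fold changes from -7.73 to -6.14; these were 3 of the 10 tested, against 14.3% and 6.97% of all genes. The 6 genome activation markers summed to 64.2 to 104.0 FPKM per IVF 1-cell and 190.3 to 320.0 per IVF 8-cell blastomere, with SALL4 the most abundant over all cells and ZSCAN4 below 1 FPKM throughout. The 7 markers of cumulus and granulosa cells summed to at most 30.2 FPKM in a cell, led by STAR, and LHCGR, INHBA, TNFAIP6 and CD44 were below 1 FPKM in every cell. None of the 5 genome activation and 3 cumulus markers that passed the filter was called. From the IVF 2-cell to the 4-cell stage those 5 genome activation markers had a median log2 fold change of 4.11. Of them, 4 were 2-fold or more higher. In the same PA step the median was 1.70, also with 4. The study, with its own test, reported NANOG, KLF4, KLF17 and SALL4 as significant between these stages. A large rise can thus go uncalled here, and no call is not evidence of no change. The 3 sperm markers summed to at most 32.8 FPKM, from ODF2 in blastomere 3 of the IVF 8-cell embryo; ODF2, the only gene of that list tested, was called higher from the IVF 4-cell stage (log2 fold change 3.35), and not without that blastomere (-0.22). The part of stored oocyte RNA, mitochondrial share and depth in the results above was not tested, and in an embryo mean fewer blastomeres with a transcript and less of it in each cannot be told apart.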

How the data were processed

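Single pig blastomeres were sequenced, 42 in all. The authors mapped reads to Sscrofa11.1 with HISAT2 and deposited FPKM values per gene, the unit used here; the paper describes lysis and amplification of single cells, while the extraction protocol in the labels describes another procedure. The 10 genes and the lists were chosen with earlier results of these data known. Embryo means were put on log2(FPKM + 1), genes under 1 FPKM in all but 2 cells were left out, and limma 3.58.1 (R 4.3.3, trend = TRUE) was fitted to all 8 groups in 1 model of 20 embryos. P-values measure the spread between these embryos. The text names all 10 genes, the called genes of each other list (at most 4 per comparison), and the 5 genes most like AEBP2, EZH2 and KDM6A by Pearson r. The fit was tested on simulated data. Alternatives were 2 pseudocounts, no filter and a filter at 5 FPKM, 2 scalings, log means, a replicate block, fewer groups and no near-repeats. Each embryo of the 1-, 2- and 4-cell stages and each 8-cell blastomere was also left out in turn. No 8-cell embryo was left out. Protein sequences were not used here.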

Additional observations from a re-analysis of the deposited data

Results flagged for a closer look

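In 16 of 40 combinations of gene and group a single blastomere stood apart from the others of its group by Dixon's test. The scale was log2(FPKM + 1). Among independent, normally distributed values the test flags about 1 in 20 groups by chance. That rate does not hold where most values lie at or near 0. KDM6B in the PA 4-cell group, for example, was flagged at 0.0169 FPKM with the other 8 cells at 0. Blastomeres of an embryo are not independent, and several of these values are below 1 FPKM.
Among core subunits, EZH1 was at 31.0 FPKM in blastomere 2 of PA 2-cell embryo 3 (next highest 0.0126) and 0.153 in blastomere 3 of IVF 4-cell embryo 2. EZH2 was at 15.6 FPKM in blastomere 1 of PA 2-cell embryo 3 (next highest 0.176) and 4.06 in blastomere 2 of PA 4-cell embryo 2. EED was at 169.5 FPKM in blastomere 2 of IVF 4-cell embryo 2 (next highest 9.11) and 0.966 in blastomere 2 of IVF 2-cell embryo 2.
Among accessory subunits, AEBP2 was at 11.4 FPKM in blastomere 3 of PA 4-cell embryo 2 (next highest 2.40) and 0.279 in blastomere 1 of IVF 2-cell embryo 1. JARID2 was at 18.3 FPKM in blastomere 1 of IVF 4-cell embryo 3 (next highest 3.10) and 7.58 in blastomere 4 of PA 4-cell embryo 1, a near-repeat library.
Of the demethylases, KDM6A was at 15.9 FPKM in blastomere 2 of PA 2-cell embryo 2, 7.87 in blastomere 1 of PA 4-cell embryo 3 and 1.99 in blastomere 4 of IVF 4-cell embryo 1. KDM6B was at 1.48 FPKM in blastomere 2 of IVF 4-cell embryo 1, 0.218 in blastomere 1 of PA 2-cell embryo 3 and 0.0169 in blastomere 1 of PA 4-cell embryo 2, the latter a near-repeat library.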

How the results depend on the processing

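Over 35 alternatives, 3323 of 3454 log2 fold changes of the 9 genes in the 11 tested comparisons kept their direction; of the 131 that turned, 3 belonged to changes of 2-fold or more. The count of members called differed by more than 1.5 times in 15 of 385 cases. From the IVF 1-cell to the 8-cell stage, 1 member was called with no filter on low values (EED lost, limma adjusted p = 0.0578), 4 with the replicate block, and between 1 and 4 with an embryo or blastomere left out (1 without IVF 1-cell embryo 2 or 3, and 4 without IVF 4-cell embryo 2 or PA 4-cell embryo 3). AEBP2 was called under every one of the 35 alternatives there, with log2 fold changes from 5.79 to 9.98. All of these alternatives kept the single IVF 8-cell embryo. From the IVF 2-cell to the 4-cell stage, 1 was called with log2 values averaged over blastomeres, and 0 to 2 with an embryo left out. From the IVF 4-cell to the 8-cell stage, 2 were called under median ratio scaling, and 0 to 2 with an embryo left out. From the PA 2-cell to the 4-cell stage and for IVF over PA at the 4-cell stage, 1 was called under median ratio scaling, and 0 to 1 with an embryo left out. For the 2- to 4-cell interaction, 0 to 1 was called with an embryo left out (AEBP2 without IVF 4-cell embryo 1). Median ratio scaling moved the median of all genes by up to 0.71 (IVF 1-cell to 8-cell). Genes called among all tested ranged from 0 to 729 for the IVF 2- to 4-cell step, 0 to 1156 for the 4- to 8-cell step, 757 to 1869 from the 1- to the 8-cell stage, 1 to 601 for the PA 2- to 4-cell step and 0 to 432 for IVF over PA at the 4-cell stage. The embryo numbers did not pair the embryos: deviations of embryos with the same number had a median r of 0.0083, against -0.0026 for different numbers, so the replicate block is given only here. From the IVF 1-cell to the 8-cell stage PHF19 was called lower under 11 of the 35 alternatives and MTF2 under 8, SUZ12 higher under 3 and EED under 30. With log2 values averaged over blastomeres PHF19 and MTF2 were called (limma adjusted p = 0.00989 and 0.0214) and EED was not (2.81, limma adjusted p = 0.0636).
Under median ratio scaling, the values that turned were EZH2 0.0117 (IVF 1-cell to 2-cell), JARID2 1.16, KDM6A 0.53 (IVF 4-cell to 8-cell), JARID2 1.85 (IVF 1-cell to 8-cell), KDM6A 0.0166 (PA 2-cell to 4-cell), JARID2 -0.0345, PHF19 -0.21 (IVF over PA at 1-cell), EZH1 -0.0883, PHF19 -0.19 (IVF over PA at 2-cell), EZH1 -0.0184, EED -1.01 (IVF over PA at 4-cell), MTF2 -0.13 (the 1- to 2-cell interaction), EZH1 0.0698, EED -1.08 (the 2- to 4-cell interaction). With the mean of log2 values over blastomeres, the values that turned were JARID2 -0.14 (IVF 2-cell to 4-cell), JARID2 0.0523, KDM6A 0.0150 (IVF 4-cell to 8-cell), EZH2 -1.24 (IVF 1-cell to 8-cell), JARID2 0.0829 (IVF over PA at 2-cell), MTF2 -0.0121 (the 1- to 2-cell interaction). With a pseudocount of 0.1, the values that turned were JARID2 0.16, KDM6A 0.36 (IVF 4-cell to 8-cell), EZH1 -0.16 (PA 1-cell to 2-cell), JARID2 0.22 (IVF over PA at 2-cell), EED -0.35 (the 2- to 4-cell interaction). With the replicate block, the values that turned were KDM6A 0.55 (IVF 4-cell to 8-cell). With nuclear genes rescaled, the values that turned were PHF19 -0.0163 (IVF over PA at 1-cell). Without both libraries of each near-repeat pair, the values that turned were JARID2 0.18 (IVF over PA at 2-cell), SUZ12 0.18, MTF2 0.93, PHF19 0.52 (IVF over PA at 4-cell), SUZ12 0.61, KDM6A -0.0658 (the 1- to 2-cell interaction), PHF19 0.21 (the 2- to 4-cell interaction). Without the PA 4-cell near-repeats, the values that turned were SUZ12 0.18, MTF2 0.93, PHF19 0.52 (IVF over PA at 4-cell), PHF19 0.27 (the 2- to 4-cell interaction). With a pseudocount of 5, the values that turned were MTF2 -0.24 (the 1- to 2-cell interaction), EZH1 0.000959 (the 2- to 4-cell interaction).
With an embryo or blastomere left out in turn, some values spanned 0. For IVF 1-cell to 2-cell these were EZH1 -0.98 to 0.50, EZH2 -0.97 to 0.60, AEBP2 -0.32 to 0.0101, PHF19 -0.27 to 0.75, KDM6A -1.23 to 0.21. For IVF 2-cell to 4-cell these were JARID2 -0.24 to 0.82. For IVF 4-cell to 8-cell these were EZH1 -0.0458 to 0.21, EED -2.20 to 5.19, JARID2 -1.22 to 0.52, KDM6A -0.17 to 0.21. For IVF 1-cell to 8-cell these were EZH2 -2.71 to 0.78. For PA 1-cell to 2-cell these were EZH1 -0.72 to 1.31, EZH2 -1.47 to 0.0882, AEBP2 -0.61 to 0.0849, JARID2 -0.84 to 0.28, MTF2 -1.34 to 0.40, PHF19 -0.15 to 0.71. For PA 2-cell to 4-cell these were EZH1 -2.01 to 0.00693, EZH2 -1.25 to 0.30, MTF2 -1.44 to 0.30, KDM6A -1.11 to 0.51. For IVF over PA at 1-cell these were EED -0.0128 to 0.0235, AEBP2 -0.60 to 0.0875, JARID2 -0.29 to 0.65, PHF19 -0.33 to 0.68, KDM6A -0.33 to 1.32. For IVF over PA at 2-cell these were EZH1 -0.28 to 1.74, JARID2 -1.02 to 0.10, PHF19 -0.29 to 0.56. For IVF over PA at 4-cell these were EED -1.21 to 2.00, SUZ12 -1.96 to 0.85, PHF19 -1.40 to 0.54, KDM6A -0.69 to 0.23. For the 1- to 2-cell interaction these were EZH1 -1.68 to 0.34, EZH2 -0.52 to 1.05, SUZ12 -0.66 to 0.21, AEBP2 -0.28 to 0.41, MTF2 -0.95 to 0.78, PHF19 -0.44 to 0.58, KDM6A -0.41 to 1.26. For the 2- to 4-cell interaction these were EZH1 -1.70 to 0.32, EED -1.42 to 1.79, SUZ12 -2.74 to 0.0719, PHF19 -1.65 to 0.29.
The causes of these changes were not tested. The 8-cell stage has 1 embryo per method and the other groups 3, and the median standard error over genes is 1.15 for the steps to the 8-cell stage and for the interactions, against 0.816 for the others. Whole reads could be recovered for most genes but not for SUZ12.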
